A study of Mus musculus with 11 samples.

Results

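The data described here are 8 of the 11 RNA-seq libraries of the series, the 4 DMSO and 4 SPI-24 libraries, selected on their own level of Drd1, the dopamine receptor of direct-pathway striatal neurons. The 3 libraries with a Drd1 normalized count of at least 1000 are called high Drd1 pieces. They are DMSO replicates 2 and 4 and SPI-24 replicate 4. The 5 libraries below that limit are called low Drd1 pieces. They are DMSO replicates 1 and 3 and SPI-24 replicates 1, 2 and 3. Each library was made from a small punch of striatum of a heterozygous BACHD mouse, a line whose transgene is the full-length human mutant huntingtin gene (HTT), carried beside the mouse's own Htt. All animals, vehicle controls included, carried this transgene. SPI-24 or its vehicle DMSO was injected under the skin for 4 days, and tissue was taken 6 h after the last dose. SPI-24 and SPI-77, the compound of the other 3 libraries, act on the contact between Spt5, an elongation factor, and the polymerase that makes mRNA. The labels used here give no dose, sex or age. The paper gives the FVB/N strain, lists sex and age per mouse, and names a lower and a higher daily SPI-24 dose for such injections. It does not say which mouse or dose belongs to which library. The study's methods name a pair of sequencing sites without saying which library was sequenced where, so a batch of that kind could not be checked. They name each library a biological replicate and do not say whether tissue of several animals was pooled.

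Most neurons of the striatum are medium spiny neurons, which release GABA and read dopamine from the midbrain. Direct-pathway neurons carry Drd1 and the peptides substance P and dynorphin, whereas indirect-pathway neurons carry the dopamine receptor Drd2, the adenosine receptor Adora2a and enkephalin. In both, dopamine and adenosine receptors act on cAMP and on the phosphatase inhibitor DARPP-32, the product of Ppp1r1b. The thalamus lies behind and medial to the striatum, and its relay neurons carry Tcf7l2 and Prkcd.

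Drd1, which made the split, had normalized counts of 1505 in DMSO 2, 1296 in DMSO 4 and 1209 in SPI-24 4. Among the low pieces, DMSO 1 had 247 and DMSO 3 had 475. SPI-24 replicates 1, 2 and 3 had 451, 49.1 and 42.0. The values just inside and just outside the limit were thus 1209 and 475, a ratio of 2.54, so a limit of 500 gave the same 2 sets of libraries. The low pieces did not form 1 level. Their highest value was 11.3 times their lowest, and SPI-24 2 and SPI-24 3 lay far below the other 3.

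From here on, values of the high pieces are given for DMSO 2, DMSO 4 and SPI-24 4, and values of the low pieces for DMSO replicates 1 and 3 followed by SPI-24 replicates 1 to 3, each in this order. Ppp1r1b had 35156, 19094 and 29977 normalized counts in the high pieces, against 10589, 11662, 13006, 1250 and 744 in the low pieces, with no overlap. Prkcd, a protein kinase C of thalamic relay neurons, had 1171, 804 and 2093 in the high pieces, against 3395, 6707, 4474, 11410 and 16157 in the low pieces. It ran the other way, also with no overlap. Tcf7l2, a Wnt pathway transcription factor, had 185, 167 and 560 in the high pieces, against 450, 947, 555, 1250 and 3035 in the low pieces. Its groups overlapped, because SPI-24 4 stood above DMSO 1 and SPI-24 1. Of the 4 markers, Tcf7l2 is thus the 1 that did not separate the libraries. The 3 SPI-77 libraries, which the split did not use, had 18.7, 68.2 and 58.9 normalized counts of Drd1 and 1875, 3426 and 3131 of Ppp1r1b. They had 2310, 4824 and 4457 normalized counts of Prkcd.

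**Figure D1:**
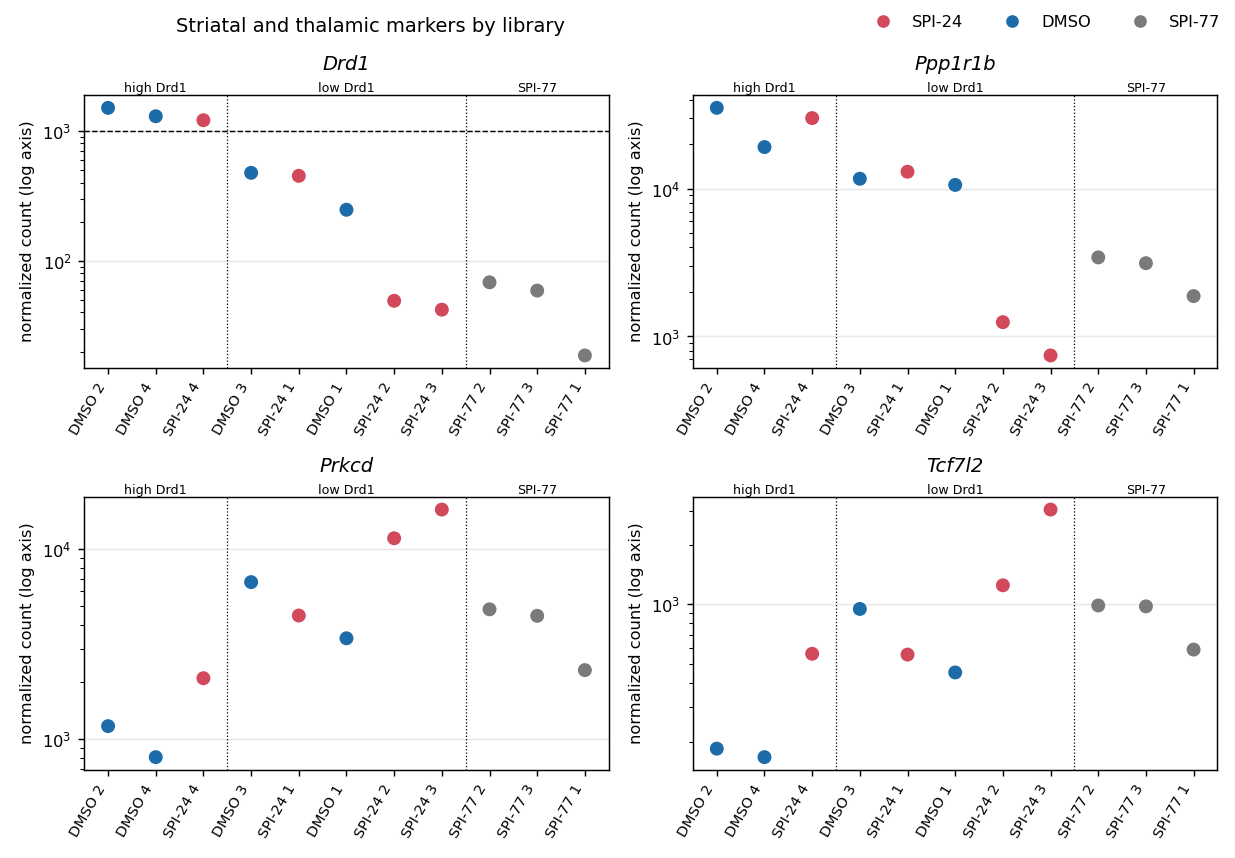
Normalized counts of Drd1, Ppp1r1b, Prkcd and Tcf7l2 on a log axis, 1 point per library, with high Drd1 pieces on the left, low Drd1 pieces in the middle and SPI-77 libraries on the right. The dashed line in the Drd1 panel is the limit of 1000; Ppp1r1b separates the high pieces from the low ones, Prkcd does so in the other direction, and Tcf7l2 of SPI-24 4 (560) lies within the range of the low pieces.

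In GRCm38, Drd1 lies on the minus strand of chromosome 13 from 54051183 to 54055705 and Ppp1r1b on the plus strand of chromosome 11 from 98348404 to 98357796. Prkcd lies on the minus strand of chromosome 14 from 30595354 to 30626210 and Tcf7l2 on the plus strand of chromosome 19 from 55741820 to 55933654. The values are counts over whole genes.

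The libraries differed in more than Drd1. Recovered reads were 16.5 M, 33.8 M and 26.0 M in the high pieces and 13.9 M to 18.2 M in the low pieces. SPI-24 4 stood apart, as it had 16263 genes detected, against 19390 to 20313 in the other 7 libraries, and at an equal depth of 10 M reads it had 16132 against 19057 to 19765. Of the genes tested, 1204 were listed at 0 in SPI-24 4, against 8 to 124 in the other 7. The share of counts from mitochondrially encoded genes was 4.01%, 8.78% and 7.56% in the high pieces, against 3.97% to 5.65% in the low pieces, so the 2 replicate 4 libraries had the highest shares. By Xist and Ddx3y, an X-linked and a Y-linked sex marker, 2 of the 3 high pieces came from males and 1 of the 5 low pieces did. Sex, depth and replicate number therefore moved in part with the Drd1 split, and their part in the differences was not tested beyond the alternatives given below. Among DMSO libraries the high pieces were male and the low pieces female. Each difference given below without SPI-24 4 rests on these libraries, so it also sets males against females. A fit with sex as a term could tell sex from class only through the SPI-24 libraries, with 1 high piece.

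Across the 16385 genes that passed the filter on low values, differences between high and low pieces were taken from a fit with treatment as a second term. The split used Drd1 of these same libraries, so the differences are a description and carry no test. A gene was counted when its fitted difference was at least 2-fold and the 3 high and 5 low libraries did not overlap. In this way 433 genes (2.64%) were higher and 327 (2.0%) were lower in the high pieces. Without the fold limit, 1354 genes (8.26%) were higher and 1620 (9.89%) lower in all 3 high pieces than in all 5 low pieces. Of the counted genes, 364 of the higher and 248 of the lower ones code for proteins, and 74 and 162 differed at least 4-fold. The median over all genes was -0.02 on the log2 scale.

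Which genes were counted, higher as well as lower, depended in part on SPI-24 4. Of the 327 lower genes, 134 (41.0%) were listed at 0 in that library, against 7.35% of all genes tested. The counting rule favours this, since a 0 in SPI-24 4 widens a lower difference. A gene at 0 there could not be counted higher, so none of the 433 higher genes was at 0. When only genes above 0 in all 8 libraries were kept, 404 genes were higher and 193 lower. Without SPI-24 4, 605 were higher and 323 lower, of which 290 and 208 were among the genes counted with it. With the sex of the animals as a further term, 482 genes were higher and 385 lower, and 412 and 322 of them were among the genes counted without that term. With the limit moved to 400, which puts DMSO 3 and SPI-24 1 among the high pieces, 223 were higher and 88 lower.

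The first 150 bases before the start sites of RefSeq (GRCm38.p6) are shown for 4 genes that were higher and 3 that were lower. They are printed 5′ to 3′ with motif matches in capitals. Drd1 is on chromosome 13 (54055659 to 54055808, minus strand), Tac1 on chromosome 6 (7554911 to 7555060, plus), Gpr6 on chromosome 10 (41072291 to 41072440, minus) and Hs3st2 on chromosome 7 (121392146 to 121392295, plus). Prkcd is on chromosome 14 (30626209 to 30626358, minus), Tnnt1 on chromosome 7 (4515976 to 4516125, minus) and Ramp3 on chromosome 11 (6658383 to 6658532, plus). The first 4 belong to higher genes and the last 3 to lower genes.
Drd1: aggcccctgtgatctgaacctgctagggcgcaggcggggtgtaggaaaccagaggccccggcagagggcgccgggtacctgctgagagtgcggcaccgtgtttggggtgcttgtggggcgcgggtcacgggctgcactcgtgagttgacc
Tac1: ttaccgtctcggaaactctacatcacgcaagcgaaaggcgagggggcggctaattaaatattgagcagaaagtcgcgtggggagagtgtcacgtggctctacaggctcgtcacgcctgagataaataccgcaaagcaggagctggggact
Gpr6: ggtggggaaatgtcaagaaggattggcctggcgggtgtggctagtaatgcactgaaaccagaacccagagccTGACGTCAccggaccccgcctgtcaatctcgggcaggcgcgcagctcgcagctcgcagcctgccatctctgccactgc
Hs3st2: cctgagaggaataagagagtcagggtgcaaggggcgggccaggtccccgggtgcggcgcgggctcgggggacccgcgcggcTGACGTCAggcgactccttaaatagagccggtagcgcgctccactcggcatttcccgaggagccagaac
Prkcd: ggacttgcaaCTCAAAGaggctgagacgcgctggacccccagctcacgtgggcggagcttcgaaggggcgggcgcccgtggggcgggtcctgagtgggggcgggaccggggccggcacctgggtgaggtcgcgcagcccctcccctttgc
Tnnt1: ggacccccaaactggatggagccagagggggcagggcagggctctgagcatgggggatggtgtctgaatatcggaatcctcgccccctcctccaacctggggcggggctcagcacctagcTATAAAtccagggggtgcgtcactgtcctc
Ramp3: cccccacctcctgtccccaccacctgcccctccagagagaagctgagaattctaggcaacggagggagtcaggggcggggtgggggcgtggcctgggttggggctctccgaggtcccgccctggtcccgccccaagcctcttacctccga

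Gpr6 and Hs3st2 each hold a full cAMP response element (TGACGTCA), from 78 to 71 and from 69 to 62 bases before the start. Prkcd holds a TCF/LEF match (CTTTGAN, here on the other strand) from 140 to 134 bases before the start, and Tnnt1 a TATA box (TATAAA) from 30 to 25 bases before it. The short form TGACG of the cAMP response element, left in lower case, is also in the Tac1 and Tnnt1 windows on one strand or the other, and the Drd1 and Ramp3 windows hold none of the motifs searched. A promoter was found by symbol for 300 of the 433 higher genes, 220 of the 327 lower genes and 11912 of all genes tested. In these windows of 300 bases (250 before and 50 after the start, both strands), the cAMP response element was present for 3.0% of higher genes, 2.27% of lower genes and 3.43% of all genes, and its short form, which the full element contains, for 28%, 20% and 33.4%. TCF/LEF matches were present for 16.7%, 11.8% and 14.5%, and AP-1 matches (TGANTCA) for 10.3%, 7.27% and 6.16%. The TATA box was present for 13.7%, 17.3% and 8.98%, the EGR motif (GCGNGGGCG) for 10.3%, 9.55% and 12%, and the AGGTCA motif of retinoid and ROR receptors for 18.7%, 17.3% and 15%. MEF2 matches were present for 6.0%, 4.55% and 3.79%. A gene with several start sites counted once if any window matched, MEF2 and TATA box matches can overlap, and a match is no evidence of binding.

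Genes of medium spiny neurons had the largest share of counted members among the lists. Of 52 members measured, 39 were counted higher and none lower, where 2.64% and 2.0% of all genes were. The median difference was 1.45 on the log2 scale, against -0.02 over all genes. Because the list holds Drd1 and genes carried by the same cells, this describes what the split selected. The 13 members not counted ran from -1.54 for Spink8 to 0.99 for Camk4. As the samples are bulk tissue, fewer cells of a type and less RNA per cell cannot be told apart.

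**Figure D2:**
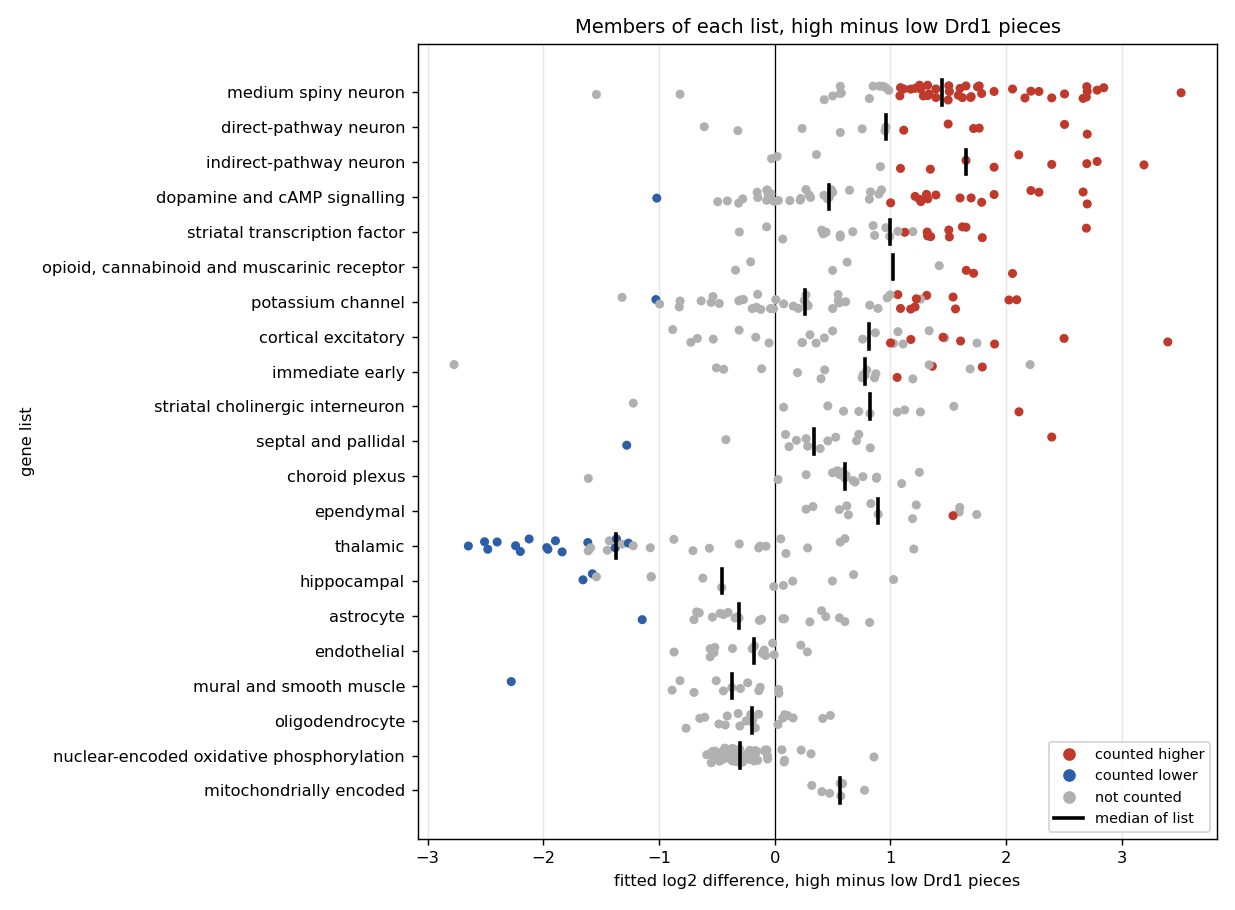
Fitted log2 difference (high minus low Drd1 pieces) of each member of 21 gene lists, 1 point per gene, with the median of each list as a black bar. Red points are counted higher and blue points counted lower; medium spiny neuron genes lie to the right (median 1.45) and thalamic genes to the left (median -1.37).

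Among receptors, Adora2a had 4074, 2114 and 3361 in the high pieces, against 954, 1262, 1034, 69.0 and 53.9 in the low pieces, a difference of 2.70 ± 1.33 (SE) on the log2 scale. Drd2 had 3439, 1658 and 3519 in the high pieces, against 931, 1346, 1257, 221 and 323 in the low pieces (1.90 ± 0.81). For both genes all 3 high pieces stood above all 5 low pieces, and SPI-24 2 and SPI-24 3 were the lowest libraries. The differences without SPI-24 4, thus between DMSO libraries alone, were 1.42 and 1.09.

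Downstream of these receptors, 15 of 45 measured genes of dopamine and cAMP signalling were counted higher (33.3%) and 1 lower (2.22%). Over all genes these shares were 2.64% and 2.0%, so the lower share was near that of all genes. The list median was 0.47. Drd1, on which the split was made, is 1 of the 15. Rgs9, which speeds the switching off of striatal G proteins, had 7316, 4060 and 6258 in the high pieces, against 1657, 1867, 2481, 135 and 158 in the low pieces (2.67 ± 1.26). Pde10a, a phosphodiesterase that breaks down cAMP and cGMP, had 5955, 3670 and 3039 in the high pieces, against 477, 1975, 1335, 422 and 568 in the low pieces (2.22 ± 0.66). Adcy5, the main striatal adenylyl cyclase, had 15393, 9095 and 13383 in the high pieces, against 5540, 7025, 6696, 3005 and 3332 in the low pieces (1.26 ± 0.40). The G protein subunit gene Gng7 (1.39), the phosphatase regulators Arpp21 (1.60) and Arpp19 (1.70) and the GTPase Rasd2 (1.79) were also counted higher. Gnal, which encodes the G protein alpha subunit that couples these receptors to cAMP, was not counted. It had 8019, 6234 and 7756 in the high pieces, against 4420, 6097, 4626, 4696 and 6447 in the low pieces (0.50 ± 0.19). The groups overlapped for Gnal, where SPI-24 3 stood above DMSO 4. Adcy8, another adenylyl cyclase, was the member counted lower (-1.02). Without SPI-24 4 the differences of Rgs9 and Rasd2 were 1.63 and 1.14.

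Genes of both output pathways stood higher in the high pieces. Over all genes, 2.64% were counted higher and 2.0% lower. Of the indirect-pathway list, 9 of 13 measured genes (69.2%) were counted higher and none lower (median 1.66). Of the direct-pathway list, 6 of 13 (46.2%) were counted higher and none lower (median 0.96). Drd1 itself is 1 of the 6. Without SPI-24 4 the medians were 0.94 for the direct-pathway and 1.09 for the indirect-pathway list. Whether the lists differed from each other was not tested. Tac1, the substance P precursor, had 2000, 1831 and 1702 in the high pieces, against 425, 705, 708, 71.6 and 73.2 in the low pieces (2.51 ± 0.99). Pdyn, the dynorphin precursor, had 1541, 1227 and 1079 in the high pieces, against 615, 854, 925, 228 and 340 in the low pieces (1.12 ± 0.53). Chrm4, a muscarinic receptor of direct-pathway neurons (1.72), and Slc35d3, which takes part in the trafficking of the Drd1 receptor (1.77), were counted too. Of indirect-pathway genes, Penk, the enkephalin precursor, had 18300, 12811 and 16093 in the high pieces, against 4775, 7286, 6977, 553 and 435 in the low pieces (2.40 ± 1.20). Gpr6, a receptor that raises cAMP, had 755, 444 and 520 in the high pieces, against 122, 225, 244, 7.76 and 11.9 in the low pieces (2.79 ± 1.38). Cd4, the T cell co-receptor, was among the widest differences of this list, with 1717, 806 and 2018 in the high pieces, against 383, 460, 524, 12.9 and 11.9 in the low pieces (3.19 ± 1.73). For each of these peptide and receptor genes the groups did not overlap. Without SPI-24 4 the differences were 1.38 for Penk, 1.80 for Gpr6, 1.49 for Cd4 and 1.0 for Chrm4.

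Transcription factors of the striatum gave 10 of 25 measured genes counted higher (40%, against 2.64% of all genes) and none lower. Their median was 1.0. Rxrg, a retinoid X receptor, had 1771, 946 and 2050 in the high pieces, against 373, 506, 603, 51.7 and 43.1 in the low pieces (2.70 ± 1.19). Its partner Rarb, a retinoic acid receptor, had 235, 117 and 93.3 in the high pieces, against 36.8, 69.5, 64.7, 25.0 and 19.4 in the low pieces (1.62 ± 0.53). Foxp1, a forkhead factor of medium spiny neurons, had 2137, 1852 and 1822 in the high pieces, against 788, 831, 960, 491 and 760 in the low pieces (1.32 ± 0.24). Meis2 (1.51), the homeobox genes Dlx6 (1.51), Dlx5 (1.32) and Dlx1 (1.13), Sp9 (1.66), Sp8 (1.35) and the activity-regulated factor Egr3 (1.80) made up the rest. Without SPI-24 4 the differences of Rxrg, Dlx6, Dlx5, Dlx1 and Sp8 were 1.57, 0.57, 0.82, 0.71 and 0.56. Foxp2 was not counted (0.57 ± 0.51). The high pieces had 377, 504 and 380 normalized counts of it, against 703 in SPI-24 3. Foxp2 was also on the list of thalamic genes.

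Receptors for opioids, cannabinoids and acetylcholine showed 3 of 8 measured members counted higher (37.5%, against 2.64% of all genes). None was counted lower, and the median was 1.03. Cnr1, the CB1 cannabinoid receptor, had 1269, 1314 and 1315 in the high pieces, against 245, 371, 353, 481 and 206 in the low pieces (2.06 ± 0.33). For Cnr1, SPI-24 2 was the highest of the low pieces. The delta opioid receptor gene Oprd1 had lower levels and was also counted higher, with 65.8, 60.8 and 147 in the high pieces, against 39.1, 34.2, 30.2, 19.8 and 12.9 in the low pieces (1.66 ± 0.54). Without SPI-24 4 the difference of Oprd1 was 0.78. The third was Chrm4.

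Of 46 potassium channel genes measured, 10 were counted higher (21.7%, against 2.64% of all genes), with a list median of 0.26. Only 1 was counted lower (2.17%), a share near the 2.0% of all genes. Kcnh4 had 852, 428 and 632 in the high pieces, against 238, 234, 296, 59.5 and 31.2 in the low pieces (2.03 ± 0.90). Kcnv1, a silent channel subunit, had 287, 375 and 390 in the high pieces, against 111, 50.7, 102, 148 and 50.6 in the low pieces (2.09 ± 0.47). Kcnj2 and Kcnj4, inward rectifiers, were higher by 1.32 and 1.07, and Kcnq5, which gives a slow M-type current, by 1.54. Without SPI-24 4 the differences of Kcnh4 and Kcnj2 were 1.35 and 0.76. Kcnab3, an accessory subunit, was counted lower (-1.03), whereas Kcnc2, a fast channel subunit, had a difference of -1.32 and overlapping groups. Of 32 calcium and sodium channel genes, 2 (6.25%, against 2.64% of all genes) were counted higher, Scn4b (1.40), a sodium channel subunit, and Itpr1 (1.21), the receptor for inositol trisphosphate. Of 40 glutamate and GABA receptor genes, Grm5 (1.39), Grm8 (1.15) and Gabrg3 (1.10) were counted higher (7.5%) and Grin2c (-1.01) lower (2.5%, against 2.0% of all genes). Without SPI-24 4 the differences of Grm8 and Gabrg3 were 0.71 and 0.72. With so few members counted, these shares say little of either list.

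The genes with the largest positive differences, at a mean of at least 100 normalized counts, were led by Ido1, an enzyme of tryptophan breakdown. Ido1 had 325, 248 and 409 in the high pieces, against 55.2, 105, 112, 3.45 and 0 in the low pieces (3.52 ± 1.88). Next were Sh3rf2 (3.29), Cd4 and Dmkn, which encodes dermokine (2.89), followed by Gpr6, Drd1, Adora2a, Rxrg and Rgs9. The predicted gene Gm19410 (2.57), Hs3st2 (2.53), an enzyme of heparan sulfate modification, Tac1, Penk and Ano2 (2.35), a calcium-activated chloride channel, were also among the first 15. Hs3st2 had 350, 657 and 539 in the high pieces, against 172, 75.0, 92.7, 62.9 and 36.6 in the low pieces. The order changed when SPI-24 4 was left out, which leaves differences between DMSO libraries alone. These were 1.89 for Ido1, 1.68 for Sh3rf2, 1.49 for Cd4, 1.51 for Dmkn and 0.78 for Ano2. Those of Gm19410, Hs3st2 and Drd1 were 2.10, 2.07 and 2.02 and stood above that of Ido1. With SPI-24 4 kept and SPI-24 2 and SPI-24 3 left out, Ido1, Sh3rf2, Cd4 and Dmkn had 1.88, 1.68, 1.64 and 1.71. Gm19410, Hs3st2 and Drd1 then had 1.93, 2.22 and 1.82. The order thus did not rest on SPI-24 4 alone.

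Genes of thalamic neurons had the largest share of members counted lower among the lists. Of 35 measured, 15 were counted lower and none higher, where 2.0% and 2.64% of all genes were, with a median of -1.37. Without SPI-24 4, 21 were counted lower and the median was -1.19. Tnnt1, a troponin subunit that marks thalamic neurons in the mouse, had 115, 126 and 527 in the high pieces, against 1106, 954, 937, 2834 and 4066 in the low pieces (-2.65 ± 0.58). Ramp3, which modifies peptide hormone receptors, had 726, 549 and 557 in the high pieces, against 2627, 3271, 2833, 4382 and 5847 in the low pieces (-2.51 ± 0.32). Rab37, a small GTPase of secretory vesicles, had 356, 226 and 379 in the high pieces, against 1254, 1898, 1305, 2442 and 3345 in the low pieces (-2.48 ± 0.39). All 3 were highest in SPI-24 2 and SPI-24 3, the libraries with the lowest Drd1. Synpo2 (-2.12), the G protein regulator Rgs16 (-2.20), the delphilin gene Grid2ip (-2.40), Plekhg1 (-1.97) and the tight junction gene Patj (-1.84) followed.

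Among transcription factors of thalamic neurons, Lef1, a partner of beta-catenin, had 133, 80.5 and 99.3 in the high pieces, against 201, 460, 288, 589 and 1092 in the low pieces (-1.96 ± 0.61). Rora, a nuclear receptor of relay neurons, had 386, 451 and 650 in the high pieces, against 697, 1457, 882, 2165 and 3399 in the low pieces (-1.38 ± 0.54). Other thalamic genes were high in SPI-24 4. Slc17a6, the vesicular glutamate transporter of thalamic neurons, had 161, 337 and 1156 in the high pieces, against 839, 1464, 670, 1693 and 2771 in the low pieces. Calb2, calretinin, had 712, 707 and 5331 in the high pieces, against 1363, 1692, 1984, 1506 and 3481 in the low pieces, so that SPI-24 4 was the highest of the 8. The summed picture was the same: the mean log2 level over the thalamic list lay between 8.03 and 8.86 in the high pieces and between 8.81 and 10.79 in the low pieces, with an overlap.

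Several of the lowest genes belong to no list. Wnt9b, a secreted Wnt ligand, had 20.4, 16.8 and 28.3 in the high pieces, against 354, 326, 244, 684 and 862 in the low pieces (-4.14 ± 0.47). Abhd12b had 10.2, 24.8 and 26.5 in the high pieces, against 178, 301, 265, 592 and 895 in the low pieces (-3.98 ± 0.55). Both differences were of like size in SPI-24 libraries (-4.16 and -4.24) and in DMSO libraries (-4.12 and -3.77). Vipr2, a receptor for vasoactive intestinal peptide, had 49.1, 24.3 and 0 in the high pieces, against 174, 204, 184, 447 and 578 in the low pieces, and its difference was -5.02 with SPI-24 4 and -2.41 without it. Nectin4, an adhesion protein, likewise gave -2.42 with SPI-24 4 and -1.22 without it. Sptssb, Tspan11, the calcium pump Atp2a1 and the prostaglandin transporter Slco2a1 were also among the first 15 lower genes, from -2.55 to -2.18.

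**Figure D3:**
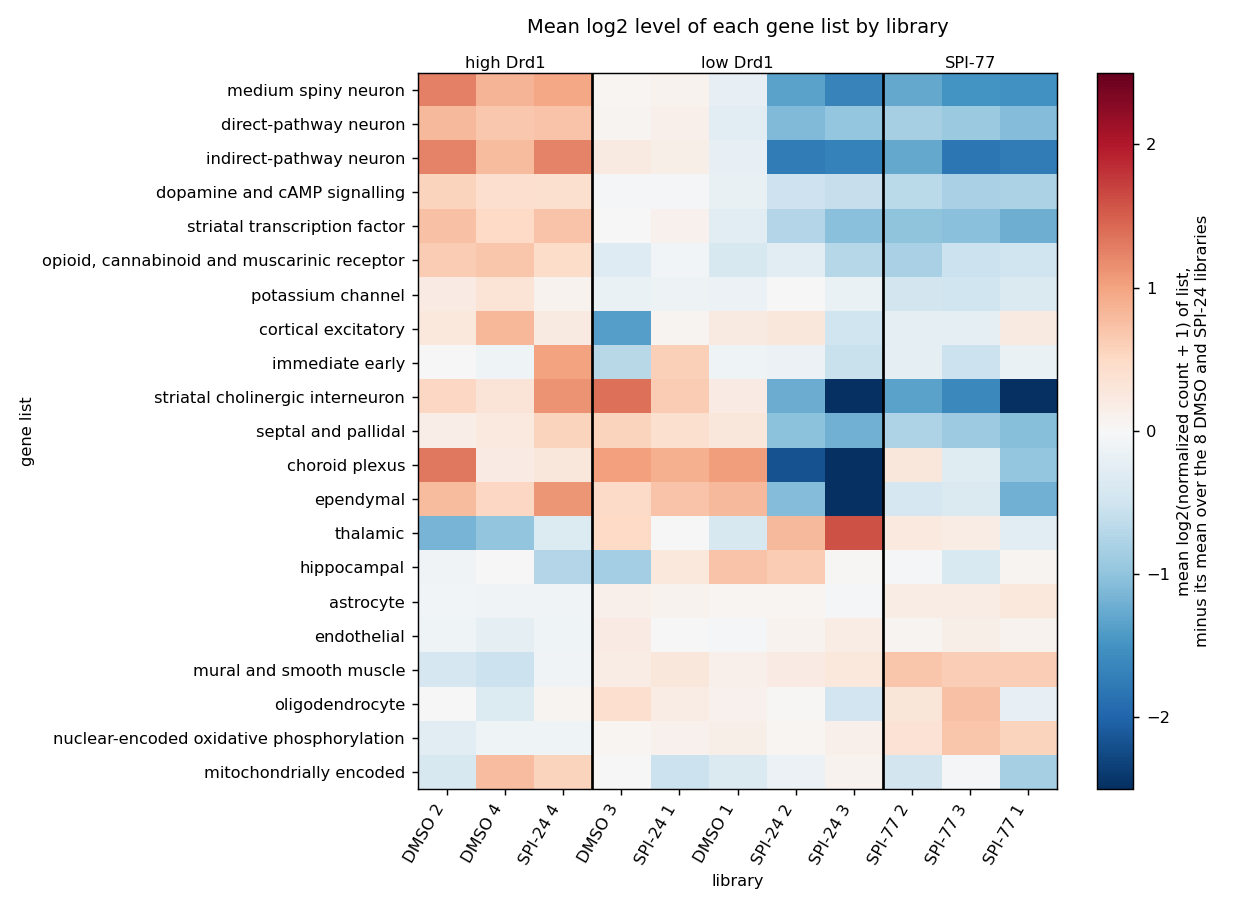
Mean log2(normalized count + 1) of each gene list in each library, minus its mean over the 8 DMSO and SPI-24 libraries, with libraries sorted by Drd1 within the high pieces, the low pieces and the SPI-77 libraries. Medium spiny neuron genes go down along the columns from DMSO 2 to SPI-24 3; choroid plexus, ependymal and cholinergic genes are low in SPI-24 2 and SPI-24 3 but not in the other low pieces.

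Markers of most other regions followed the split less closely. Of 10 habenular genes none was counted, but 9 were above 0 (median 0.76), where 7973 of all 16385 genes were. The mean log2 level of the habenular list did not overlap, at 6.89 to 7.56 in the high pieces and 6.11 to 6.75 in the low pieces. Of 28 cortical excitatory genes, 7 were counted higher (25%, against 2.64% of all genes) and none lower (median 0.82). The median was 0.40 without DMSO 3, which had the lowest mean level of this list, and among SPI-24 libraries alone 10 were counted higher and 6 lower. Tbr1, a factor of deep cortical neurons, had 341, 812 and 356 in the high pieces, against 272, 39.7, 132, 274 and 75.4 in the low pieces (1.90 ± 0.87). Slc17a7, the vesicular glutamate transporter of cortical neurons, was not counted, with 14008, 21371 and 7643 in the high pieces, against 26311, 4892, 16965, 24394 and 12870 in the low pieces. The mean log2 level over the cortical list overlapped between the groups, at 8.90 to 9.51 and 7.31 to 8.97. Of 13 hippocampal genes, Bok (-1.66) and C1ql2 (-1.58) were counted lower (15.4%, against 2.0% of all genes). Pvalb, the calcium-binding protein of fast-spiking neurons, had 2525, 2973 and 1845 in the high pieces, against 6013, 6943, 6683, 3928 and 3838 in the low pieces (-1.28 ± 0.23).

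Genes of the ventricle wall and of cholinergic neurons divided the low pieces instead. Over 16 choroid plexus genes the mean log2 level was 8.26 to 9.37 in the high pieces, against 8.93 to 9.09 in DMSO 1, DMSO 3 and SPI-24 1 and 5.45 to 5.88 in SPI-24 2 and SPI-24 3. Over 13 ependymal genes it was 7.42 to 8.01, against 7.38 to 7.71 and 3.59 to 5.82. Over 11 cholinergic genes it was 6.38 to 7.16, against 6.24 to 7.42 and 3.10 to 4.80. The list medians of 0.61, 0.90 and 0.82 turned to -0.37, -0.11 and -0.47 without SPI-24 4. Ttr, transthyretin of the choroid plexus, had 155337, 70855 and 81861 in the high pieces, against 190915, 149205, 131889, 3790 and 2265 in the low pieces. Chat, the acetylcholine-making enzyme, had 172, 115 and 133 in the high pieces, against 81.6, 195, 100, 19.8 and 6.46 in the low pieces. SPI-24 2 and SPI-24 3 thus stood low in all 3 lists, and the part of this in the Drd1 split was not tested.

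Lists of glia, vessels, meninges and blood had medians below 0. The mean log2 level over 21 astrocyte genes was 10.67 to 10.69 in the high pieces, against 10.70 to 10.87 in the low pieces. Of the astrocyte genes 1, Agt, the angiotensin precursor, was counted lower (-1.14), 4.76% against 2.0% of all genes. Over 15 endothelial genes the mean level was 8.04 to 8.16, against 8.25 to 8.47, with none counted. Over 13 mural genes it was 6.94 to 7.39, against 7.62 to 7.76. Of the mural genes 1 (7.69%), Cnn1, a smooth muscle calponin, was counted lower. Single members say little of either list. Cnn1 was at 0 in SPI-24 4, and its difference was -2.28 with that library and -1.02 without it. Oligodendrocyte genes overlapped, at 11.69 to 12.11 and 11.55 to 12.45, with none of 21 counted. None of 17 microglial genes was counted. Over 13 meningeal genes the median was -0.58 and the levels were 6.14 to 6.84 in the high pieces, against 6.82 to 7.32 in the low pieces. Over 6 blood genes the median was -0.48, and the levels were 6.19 to 7.81, against 7.09 to 7.72. Of 21 immediate early genes, 3 (14.3%, against 2.64% of all genes) were counted higher (Egr3, Homer1 and Ier5). The median of that list was 0.78, and 0.31 without SPI-24 4, where Egr1 had 4046 normalized counts, against 731 to 1701 in the other 7 libraries.

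Of 54 nuclear-encoded genes of oxidative phosphorylation none was counted, but 48 were below 0, where 8412 of all 16385 genes were. The median of this list was -0.30. Its mean log2 level was 10.99 to 11.16 in the high pieces, against 11.31 to 11.42 in the low pieces. None of the 7 mitochondrially encoded genes measured was counted, and their levels overlapped, at 15.94 to 17.11 and 15.79 to 16.42. Their median was 0.57, which turned to -0.36 without the 2 replicate 4 libraries. Of 46 cytosolic ribosomal protein genes, Rpl34 and Rps2 were counted lower (4.35%, against 2.0% of all genes), both near or at 0 in SPI-24 4. Their differences were -3.16 and -1.79 with that library and -1.17 and -0.60 without it. Since the authors dropped reads with several positions, the values of such genes, which have many near copies, are uncertain.

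The genes whose log2 levels followed Drd1 most closely over the 8 libraries are given as a description, as the libraries share depth and tissue. Tac1, Gm19410, Penk, Akap5, Gpr6, Arpp21 and Rxrg were among the 8 with the highest Pearson correlations, all between 0.98 and 1.0. Akap5, which anchors protein kinase A at synapses, had 1393, 1176 and 1296 in the high pieces, against 493, 609, 702, 262 and 166 in the low pieces. Nt5dc3, F730043M19Rik, 6430548M08Rik, Syt7, Gabbr2, Nsmf, Slc6a17 and Plch2 had the lowest, between -1.0 and -0.97. Nt5dc3 had 799, 884 and 852 in the high pieces, against 1352, 1124, 1211, 2083 and 2197 in the low pieces. The widely expressed GABA-B receptor subunit gene Gabbr2 had 3146, 3837 and 3285 in the high pieces, against 4703, 4755, 4661, 7676 and 9795 in the low pieces. Of these 8, Nsmf was the 1 counted, with a difference of -1.01.

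High and low pieces could be set side by side within each treatment, on libraries that do not overlap: 1 high and 3 low among SPI-24, 2 high and 2 low among DMSO. All 433 higher and all 327 lower genes had the same sign in both, which the demand for no overlap fixes. By fold alone, 1611 genes were at least 2-fold higher in the high pieces among SPI-24 libraries and 881 among DMSO libraries, and 298 were in both, 18.5% of the SPI-24 and 33.8% of the DMSO genes. On the lower side 2294 genes among SPI-24 libraries and 470 among DMSO libraries reached 2-fold, and 255 were in both, 11.1% and 54.3% of them. A further 247 genes were 2-fold higher in one treatment and 2-fold lower in the other. Across all genes, which are not independent replicates, the 2 sets of differences had a Pearson correlation of 0.17. Medium spiny neuron genes had a median of 1.83 in SPI-24 libraries and 1.10 in DMSO libraries, and thalamic genes of -1.42 and -1.19. The septal and pallidal list went opposite ways, at 1.17 in SPI-24 libraries and -0.29 in DMSO libraries.

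**Figure D4:**
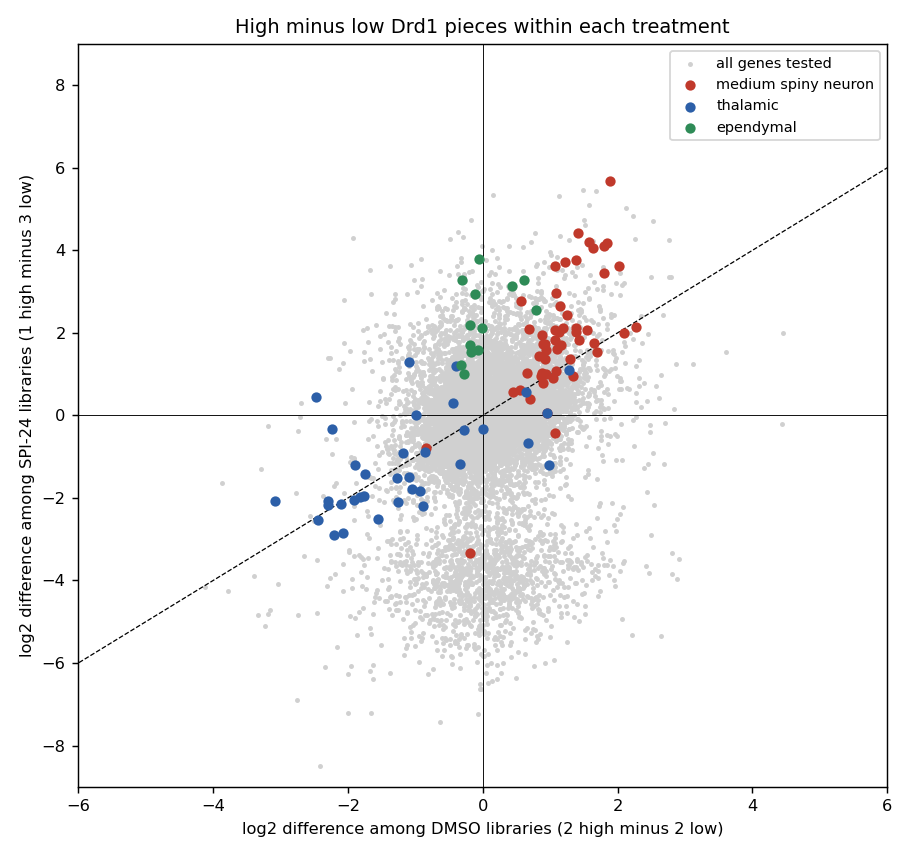
Log2 difference of high minus low Drd1 pieces among SPI-24 libraries (y axis) and among DMSO libraries (x axis), 1 point per gene, with 3 gene lists in colour and the line of equal values dashed. Medium spiny neuron genes (medians 1.83 and 1.10) lie in the upper right and thalamic genes (medians -1.42 and -1.19) mostly in the lower left; the grey cloud below -2 on the y axis holds many of the 1204 genes that were at 0 in SPI-24 4.

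The low pieces themselves were graded. Of the 433 higher genes, 193 (44.6%) had higher values in each of DMSO 1, DMSO 3 and SPI-24 1 than in SPI-24 2 and SPI-24 3, against 16.9% of all genes tested. Of the 327 lower genes, 142 (43.4%) had lower values in those 3 libraries, against 16% of all genes. Extreme values in SPI-24 2 and SPI-24 3 widen the fitted difference by which genes were counted. Part of the gap to all genes is thus built in, and these shares carry no test. Without SPI-24 2 and SPI-24 3, 439 genes were higher and 404 lower, and 28 of the 52 medium spiny neuron genes were counted.

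For most of the counted genes the SPI-77 libraries lay on the same side of the high pieces as the low pieces did. Of the 433 higher genes, 393 (90.8%) were below the lowest high piece in all 3 SPI-77 libraries, against 24.8% of all genes tested. Of the 327 lower genes, 266 (81.3%) were above the highest high piece in all 3, against 25.3% of all genes. Counted genes were chosen for high pieces that stand apart. The shares over all genes are thus no like reference, and nothing was tested here. Penk had 890, 2009 and 1117 normalized counts in SPI-77 1, 2 and 3, and Ramp3 had 2102, 3872 and 5252. The mean log2 level over medium spiny neuron genes was 8.27 to 8.5 in SPI-77 libraries, next to 8.12 to 8.46 in SPI-24 2 and SPI-24 3. All 3 SPI-77 libraries had the marks of males, so that compound, sex and Drd1 level cannot be told apart for them.

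Huntingtin and the target of the compounds differed little between high and low pieces. Human HTT had 5546, 4655 and 4637 normalized counts in the high pieces, against 4680, 4654, 4995, 5798 and 5465 in the low pieces (-0.03 ± 0.11), and mouse Htt had 1976, 1903 and 1567, against 1990, 1846, 1867, 2268 and 2295 (-0.18 ± 0.13). The sources used here do not say how reads in stretches shared by the human and mouse genes were assigned. Supt5, which encodes Spt5, differed by -0.05 ± 0.15 and Supt4a, its partner, by -0.04 ± 0.19. None of 30 measured genes of Spt5 and Pol II elongation was counted, and their median was -0.04. Bdnf, the growth factor that cortical neurons supply to the striatum, differed by 0.23 ± 0.57.

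The treatment term of the same fit asks what differed between SPI-24 and DMSO at equal Drd1 class, and the split did not use it. Class was measured after treatment, and SPI-24 had 1 high and 3 low pieces against 2 and 2 for DMSO. By limma with Benjamini-Hochberg adjustment over 16385 genes, 0 genes (0%) were called at an adjusted p below 0.05 and a fold of at least 2. No adjusted p was under 0.812. Before adjustment, 848 of the 16385 genes had p under 0.05 by limma, 303 of them higher with SPI-24. Chance alone puts a share of about 0.05 of genes under that limit. On the recovered reads edgeR and DESeq2 also called 0 genes, with 574 and 843 under 0.05 before adjustment. Human HTT was 0.09 ± 0.12 higher with SPI-24 on the log2 scale (adjusted p = 0.909, limma) and mouse Htt differed by -0.01 ± 0.13 (adjusted p = 0.995). Without SPI-24 1, Tnnt1 was called higher (1.88 ± 0.17, adjusted p = 0.0188) and Cartpt (-3.43 ± 0.29, adjusted p = 0.0181) and Slc16a8 (-4.54 ± 0.45, adjusted p = 0.0199) lower by limma. Cartpt encodes a hypothalamic and striatal peptide and Slc16a8 a lactate transporter, and these 3 genes were named after their values were seen. In that fit the low SPI-24 pieces were SPI-24 2 and SPI-24 3, with Drd1 at 49.1 and 42.0. DMSO 1 and DMSO 3 had 247 and 475, so equal class was not an equal Drd1 level. With all 8 libraries, the treatment term had medians of 0.67 for thalamic and -0.54 for medium spiny neuron genes, against -0.01 for all genes.

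**Figure D5:**
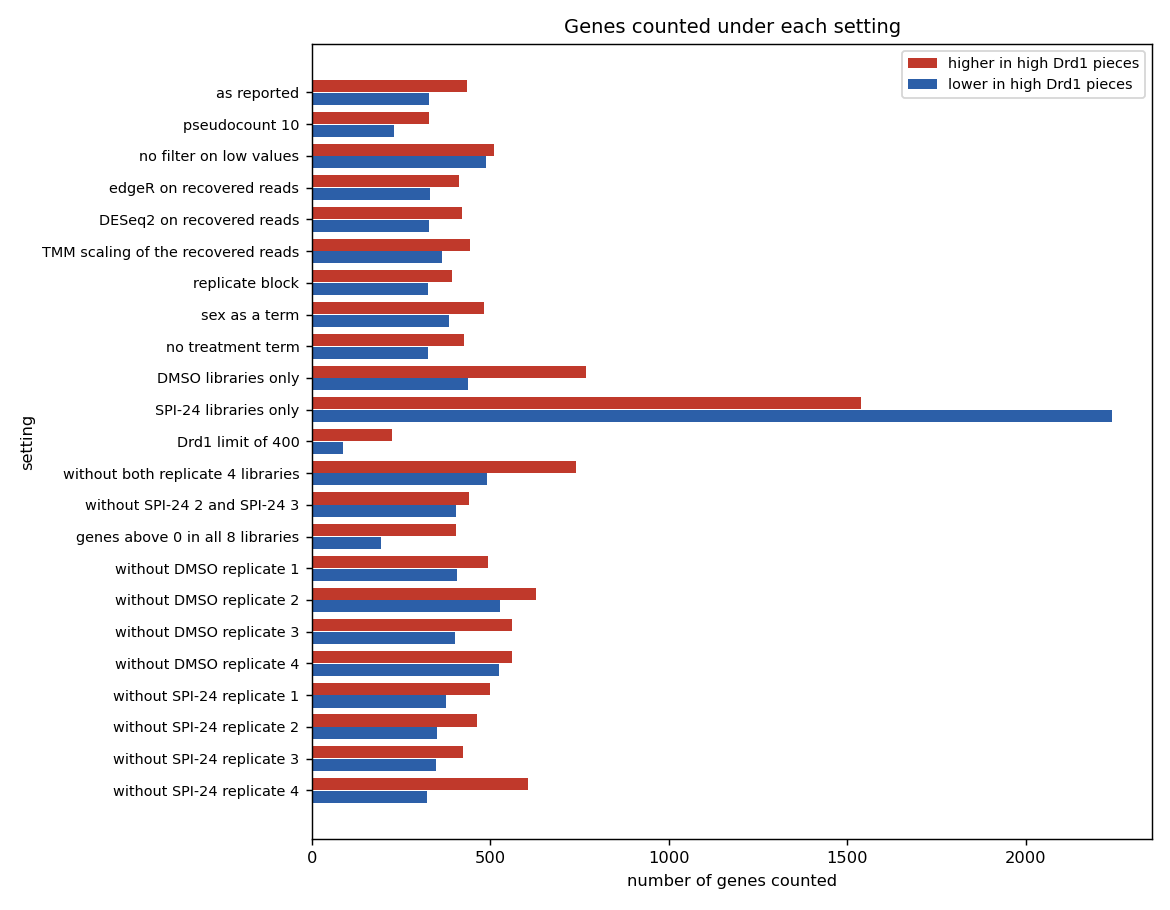
Number of genes counted higher (red) and lower (blue) in the high Drd1 pieces under each way of processing, with the count as reported at the top (433 and 327). The count among SPI-24 libraries alone (1537 and 2243) rests on 1 high piece, SPI-24 4.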

How the data were processed

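Poly(A) RNA was sequenced with a stranded kit in 11 libraries, grouped by the labels. The authors used cutadapt, STAR (GRCm38), HTSeq and DESeq2, as the submitters' processing notes and the paper's methods name them (no versions in these sources), and dropped reads with several positions, which lowers genes with close copies. The deposited values are normalized counts for 20957 genes, a signal made by dividing reads by size factors. Their low values (up to 20 steps) were whole multiples of 1 step within 0.1 step in 100% of cases, which gave the reads (10.2 M to 33.8 M per library; the count alternatives used them). Authors' fold changes and p-values in the table, and their list of limits, were not used. Of gene identifiers, 20924 (99.8%) matched GENCODE; 24 names that were dates and 2 blank ones were looked up there.

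High and low Drd1 pieces were compared on log2(normalized count + 1), which understates differences of low genes, for genes with at least 10 in at least 3 of 8 libraries, with least squares in limma 3.58.1 (R 4.3.3) and treatment as covariate. SE is the standard error of the fit. The treatment term was tested with limma, trend and robust variance; edgeR 4.0.16 and DESeq2 1.42.0 were alternatives. The fit was tested on simulated data. No 2 libraries of a group agreed within counting noise (lowest chi-square per gene 20.1). P-values measure the spread between these libraries, differences in tissue content included. Alternatives were pseudocount, filter, scaling, tool, leaving out libraries, replicate block, sex, Drd1 limit and fold limit. The Drd1 limit, the 40 gene lists (778 genes) and the tests were chosen with earlier results of these data known. Named genes were the 4 markers and huntingtin, Spt5, Bdnf and sex genes, the 15 protein-coding genes with the largest differences each way (no overlap, mean of at least 100), the up to 6 widest members of each list plus members needed for their role, and the 8 best correlated with Drd1 each way. Some genes that this rule names are not reported here.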

Additional observations from a re-analysis of the deposited data

Results flagged for a closer look

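In groups of 4 libraries, 98 checks for a library far from the other 3 of its treatment gave 7 such values, where chance gives about 0.05 of the checks. DMSO 4 had 33.8 M reads, against 13.9 M to 16.5 M in the other DMSO libraries. SPI-24 4 had 16263 genes detected, and 16132 at equal depth, both under the other SPI-24 libraries. Over matrix genes, SPI-24 4 had a mean log2 level of 9.96, above the other SPI-24 libraries. SPI-24 1 had 6.73 over hypothalamic genes, where the other SPI-24 libraries had 4.36 to 4.59. Over blood genes DMSO 2 had 6.49 and was the lowest DMSO library. DMSO 3 had 7.23 over immediate early genes and was also the lowest.

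For 2 lists the high minus low difference of the mean log2 level had opposite signs in the treatments, with every high piece on one side of every low piece. Septal and pallidal genes gave 1.17 among SPI-24 libraries and -0.21 among DMSO libraries. Synaptic vesicle release genes gave -0.07 among SPI-24 libraries and 0.13 among DMSO libraries. These differences between treatments were not tested.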

How the results depend on the processing

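As reported, 433 genes were higher and 327 lower in the high Drd1 pieces. Counts beyond 1.5 times these came from SPI-24 libraries alone (1537 higher, 2243 lower, 1 high piece), DMSO libraries alone (768 higher) and a fold limit of 1.5 (893 and 698). Alternatives chosen after seeing the data gave 223 and 88 at a Drd1 limit of 400, 740 higher without both replicate 4 libraries, and 193 lower among genes above 0 in all 8 libraries. Leaving out 1 library gave 424 to 627 higher and 323 to 528 lower, with 528 lower without DMSO 2 and 524 without DMSO 4. For SPI-24 against DMSO, leaving out 1 library gave 0 to 1 gene called higher and 0 to 2 called lower, the calls coming without SPI-24 1. Pseudocount, filter, scaling, tool, sex and the treatment term kept both counts within 1.5 times. The cause of these shifts was not tested. Of list medians, 538 values stayed within the spread between libraries and 62 did not, and of single genes 701 and 64.

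Replicate numbers were not used to pair the samples, and whether they mark a shared batch was not tested. Same-numbered libraries had correlations of 0.17, -0.16, 0.21 and 0.12 in their deviations, and 3 of 4 DMSO libraries correlated best with their own number. With a replicate block, 393 genes were higher and 325 lower, of which 308 and 283 were among those counted without it, and 0 genes were called for treatment.

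Counting error is widest for genes near 10 normalized counts. SPI-24 4, with 1204 tested genes at 0, had 26.0 M reads and the fewest genes of the 8 at an equal depth too.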
